A study of Rattus norvegicus with 9 samples.

Results

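Matrix metalloproteinases, their relatives of the ADAMTS family and the tissue inhibitors of metalloproteinases were examined as 10 genes in cultured rat vascular smooth muscle cells: Mmp2, Mmp14, Mmp3, Mmp11, Timp1, Timp2, Timp3, Adamts1, Adamts2 and Adamts5. They were taken by symbol from the 26401 genes of an RNA-seq table, where all 10 were found. Of these, 8 were listed above 0 in some library, and the same 8 were among the 11376 genes tested, whose FPKM averaged 1 or more across all 9 libraries. FPKM is the number of sequenced fragments scaled by transcript length and library size, so levels can be set side by side between genes.

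The cells were wild type S31, primary smooth muscle cells that came originally from small heart vessels of male Wistar Kyoto rats. After 48 h without serum, in medium that held lactalbumin hydrolysate, they received a growth factor at 25 ng/ml or fresh serum-free medium alone. There were 3 sets of 3 libraries, called by their data columns PDGF-NS, IGF-NS and LH-NS, the last of which is the control. The records titled IGF-1, with a harvest at 24 h, name the PDGF-NS columns, and the records titled PDGF-BB, with a harvest at 48 h, name the IGF-NS columns. Which growth factor and which time belong to which of these sets therefore could not be settled, and growth factor and time cannot be told apart for the set harvested at 48 h. Controls were harvested at 24 h. Whether the libraries of a set were separate cultures is not stated in the labels, and the p-values reflect only the spread among these libraries, which may be technical.

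Metalloproteinases are zinc enzymes that cut collagens, elastin, proteoglycans and cell surface proteins, and vessel smooth muscle cells make several of them when they migrate or rebuild the wall. The membrane-bound enzyme MMP14 activates the secreted gelatinase MMP2 at the cell surface, with TIMP2 serving both as the adaptor of that step and, at higher levels, as its inhibitor. TIMP3 is bound to the matrix and also inhibits ADAMTS enzymes, which cut the large proteoglycans aggrecan and versican or trim procollagen. Transcript levels say nothing of whether an enzyme is in its inactive proform or has been activated.

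Promoter sequence from RefSeq (rat build GRCr8) was found for 7 members: Mmp3, Mmp11, Timp1, Timp2, Timp3, Adamts1 and Adamts2. The 4 windows below hold the 250 bases before the start of a gene that fell in PDGF-NS (Timp3 and Adamts2), of the abundant inhibitor whose change did not pass the test (Timp2) and of a gene listed at 0 throughout (Mmp3). Capitals mark 4 motifs searched on both strands, which are TGANTCA for the AP-1 motif, the letters TATAAA for a TATA box, the letters GGGCGG for a GC box, and the CCAAT box by its name. The Timp3 window lies at chr7:19459559-19459808 on the minus strand, Adamts2 at chr10:35421780-35422029 on the plus strand, Timp2 at chr10:104089215-104089464 on the minus strand and Mmp3 at chr8:12925031-12925280 on the plus strand.
Timp3: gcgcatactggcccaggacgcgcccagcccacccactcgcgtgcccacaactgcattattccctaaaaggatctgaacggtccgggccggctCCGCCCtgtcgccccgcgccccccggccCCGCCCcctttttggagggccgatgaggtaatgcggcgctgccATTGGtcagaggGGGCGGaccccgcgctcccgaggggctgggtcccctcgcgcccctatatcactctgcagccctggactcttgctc
Adamts2: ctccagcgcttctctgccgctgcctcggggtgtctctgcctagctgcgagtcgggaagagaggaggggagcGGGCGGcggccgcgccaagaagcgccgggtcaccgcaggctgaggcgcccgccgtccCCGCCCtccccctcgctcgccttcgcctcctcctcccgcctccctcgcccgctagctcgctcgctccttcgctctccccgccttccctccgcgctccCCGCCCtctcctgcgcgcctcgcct
Timp2: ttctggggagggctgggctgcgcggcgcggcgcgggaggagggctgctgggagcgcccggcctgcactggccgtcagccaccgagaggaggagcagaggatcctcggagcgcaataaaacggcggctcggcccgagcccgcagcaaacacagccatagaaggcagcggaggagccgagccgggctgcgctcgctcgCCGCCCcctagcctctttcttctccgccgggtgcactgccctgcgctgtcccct
Mmp3: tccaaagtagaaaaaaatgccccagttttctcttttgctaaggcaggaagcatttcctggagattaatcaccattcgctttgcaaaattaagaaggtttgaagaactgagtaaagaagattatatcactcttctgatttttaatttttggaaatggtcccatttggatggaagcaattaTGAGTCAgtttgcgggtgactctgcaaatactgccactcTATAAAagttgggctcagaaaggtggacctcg

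The Timp3 window was 69.6% G and C, held 23 CG dinucleotides and had GC boxes 158, 130 and 75 bases before the start, with CCAAT at 87 bases. The Adamts2 window was 75.6% G and C, with 33 CG dinucleotides and GC boxes at 179, 122 and 25 bases. The Timp2 window, also rich in G and C at 72.0%, had 27 CG dinucleotides and 1 GC box, at 54 bases. These 3 windows were above the median of all 33469 rat promoter windows, which was 51.2% G and C and 5 CG dinucleotides. Mmp3 differed from them in kind, with 38.8% G and C, 3 CG dinucleotides, AP-1 letters 71 bases and TATA letters 32 bases before the start. Among the 7 windows only that of Mmp3 held the AP-1 letters, which stood in 6.34% of all windows of this length. TATA letters stood in 12.9%, the GC box in 30.5% and CCAAT in 34% of all windows. A match is a description of letters and not of a bound site.

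Among the 8 members listed above 0, Timp2 was the most abundant, and at 1150 to 2035 FPKM it stood above the others in all 9 libraries. The order of the next members differed between sets. In PDGF-NS the membrane-bound proteinase Mmp14 came next at a mean of 311 FPKM, with Timp3 at 184 FPKM, and their libraries did not overlap. In IGF-NS Mmp14 averaged 355 FPKM and Timp3 285 FPKM, with overlap. In LH-NS the order was the opposite, with Timp3 at 504 FPKM above Mmp14 at 207 FPKM and no overlap. Adamts1 followed in each set, at 44.8 FPKM in PDGF-NS, 58.2 FPKM in IGF-NS and 65 FPKM in LH-NS. Below it in PDGF-NS were Mmp11 (19.6 FPKM) and Mmp2 (15.9 FPKM), which overlapped, then Adamts2 (10.4 FPKM) and Adamts5 (1.8 FPKM), which did not overlap with each other or with Mmp2. In IGF-NS Mmp11 (32 FPKM), Mmp2 and Adamts2 (18.9 FPKM each) overlapped, and Adamts5 (12.8 FPKM) overlapped with Mmp2 and Adamts2 but not with Mmp11. In LH-NS Mmp11 and Adamts2 (20.5 FPKM each) overlapped, and Adamts5 (6.44 FPKM) stood above Mmp2 (3.38 FPKM) with overlap. The plot of the members by library shows these values set by set.

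**Figure D1:**
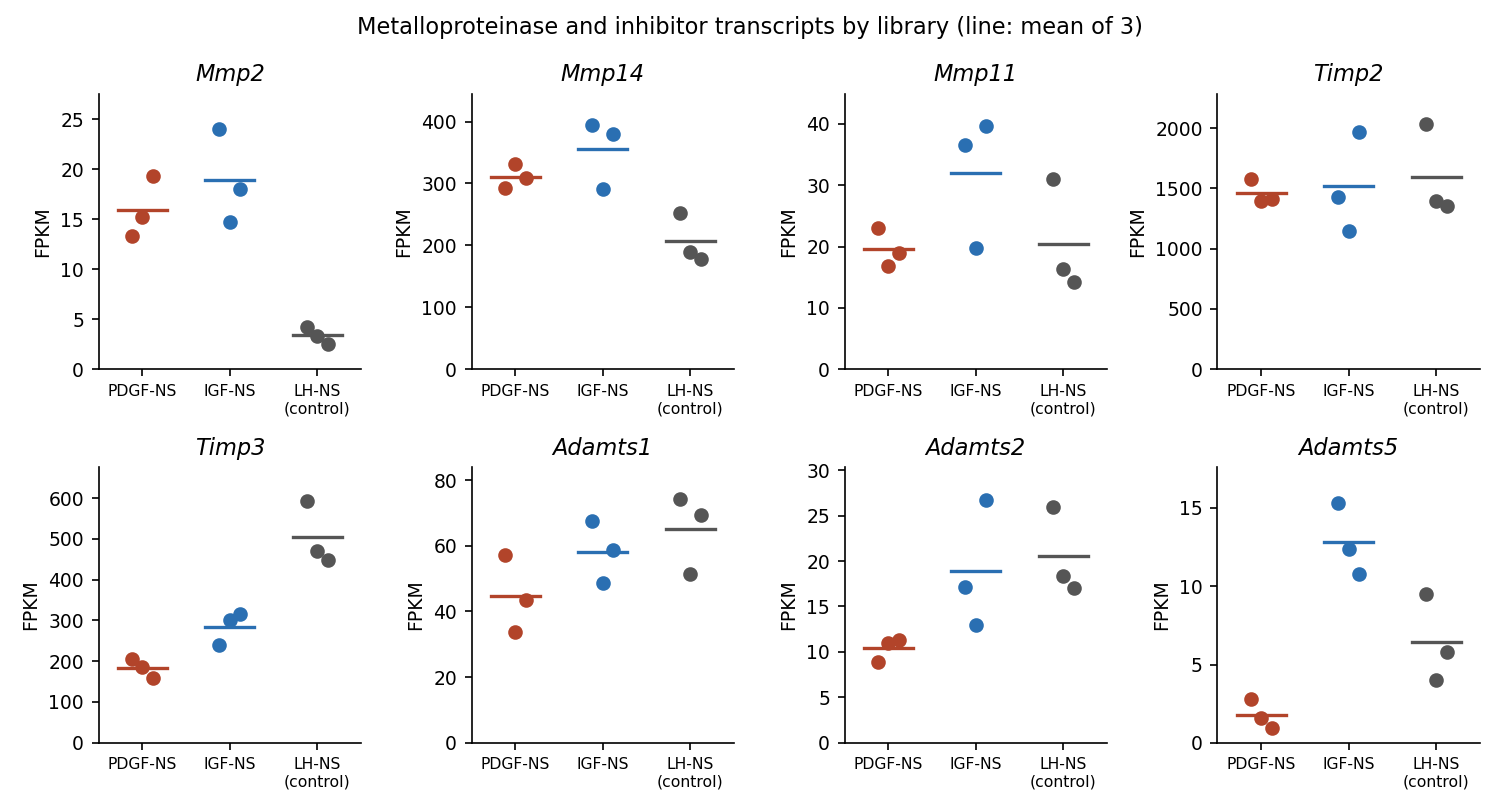
FPKM of the 8 members listed above 0, 1 panel per gene with its own axis from 0, each point 1 library and each short line the mean of the 3 libraries of a set (PDGF-NS, IGF-NS, LH-NS control). Mmp2 and Mmp14 are higher and Timp3 is lower in both treated sets than in the control, while Adamts5 is lowest in PDGF-NS and highest in IGF-NS.

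In PDGF-NS against the control, 2 members rose (Mmp2 and Mmp14), 3 fell (Timp3, Adamts2 and Adamts5) and 3 did not pass the test (Mmp11, Timp2 and Adamts1). Over all tested genes 20.7% rose and 10.2% fell in this comparison, by limma-trend on log2(FPKM + 1) with an adjusted p under 0.05. In IGF-NS against the control, 3 members rose (Mmp2, Mmp14 and Adamts5), 1 fell (Timp3) and 4 did not pass, beside 17.4% of all tested genes higher and 7.48% lower. In PDGF-NS against IGF-NS no member rose, 2 fell (Timp3 and Adamts5) and 6 did not pass, beside 8.33% of all tested genes higher and 7.55% lower. The median log2 change of the 8 members was -0.32 in PDGF-NS against the control, beside 0.13 over all tested genes. It was 0.28 in IGF-NS against the control, beside 0.15, and -0.51 in PDGF-NS against IGF-NS, beside -0.02. Both comparisons against the control use the same 3 control libraries. For genes at low levels, adding 1 before the logarithm makes the change look smaller than it was.

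**Figure D2:**
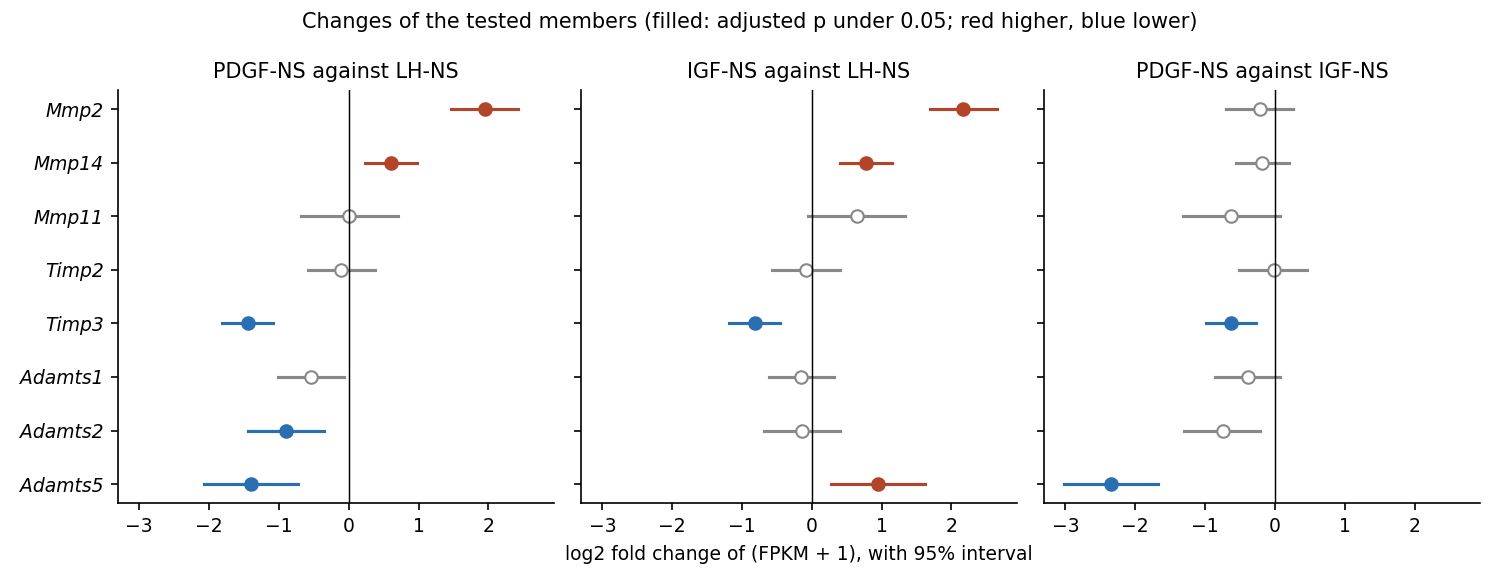
Log2 change on the log2(FPKM + 1) scale of the 8 tested members in PDGF-NS against LH-NS, IGF-NS against LH-NS and PDGF-NS against IGF-NS; bars are 95% intervals from limma-trend and filled points have an adjusted p under 0.05. Mmp2 is higher than the control in both treated sets (1.95 and 2.17), and Adamts5 lies on opposite sides of 0 (-1.40 and 0.95).

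Mmp2 encodes the gelatinase that degrades basement membrane collagen and denatured collagen. It had 13.3, 15.2 and 19.3 FPKM in PDGF-NS, 24, 14.7 and 18 FPKM in IGF-NS, and 4.27, 3.34 and 2.54 FPKM in LH-NS. All 6 treated libraries stood above all 3 controls, and the treated sets overlapped each other. The means were 15.9 ± 3.05 FPKM in PDGF-NS, 18.9 ± 4.71 FPKM in IGF-NS and 3.38 ± 0.869 FPKM in LH-NS (SD, n = 3 each). The level was 4.7-fold higher in PDGF-NS than in the control (log2 change 1.95 ± 0.22 SE, limma adjusted p = 0.00013) and 5.58-fold higher in IGF-NS (2.17 ± 0.22 SE, adjusted p = 0.00014). Both calls held in all 17 alternative settings. PDGF-NS against IGF-NS did not pass the test (log2 change -0.22, 95% interval -0.70 to 0.26, adjusted p = 0.55).

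Mmp14 encodes the membrane-type enzyme that activates MMP2 and also cuts fibrillar collagen. Its levels were 293, 331 and 309 FPKM in PDGF-NS, 394, 291 and 380 FPKM in IGF-NS, and 253, 189 and 178 FPKM in LH-NS. Here too every treated library was above every control, but the highest control, library 1, lay close to the lowest treated ones. The means were 311 ± 19.3, 355 ± 56.2 and 207 ± 40.5 FPKM in PDGF-NS, IGF-NS and LH-NS (SD, n = 3 each). Against the control the level was 1.72-fold higher in IGF-NS (log2 change 0.78 ± 0.17 SE, adjusted p = 0.0085), a call that held in all 17 alternatives. It was 1.51-fold higher in PDGF-NS (0.60 ± 0.17 SE, adjusted p = 0.021). The PDGF-NS call was lost when libraries were scaled to a common sum (0.46, adjusted p = 0.054) and without LH-NS library 2 (adjusted p = 0.068), LH-NS library 3 (0.073), PDGF-NS library 2 (0.071) or PDGF-NS library 3 (0.062). Between the treated sets the change did not pass (-0.18, 95% interval -0.55 to 0.20, adjusted p = 0.54).

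Mmp11 encodes a stromelysin that is activated inside the cell by furin before it is secreted. The values were 23.1, 16.9 and 18.9 FPKM in PDGF-NS, 36.6, 19.7 and 39.6 FPKM in IGF-NS, and 31, 16.4 and 14.2 FPKM in LH-NS. The sets overlapped, with library 1 of the control and libraries 1 and 3 of IGF-NS well above the others of their set. No comparison passed: the log2 change was 0.01 in PDGF-NS against the control (adjusted p = 0.99), 0.64 ± 0.31 SE in IGF-NS against the control (adjusted p = 0.17) and -0.63 in PDGF-NS against IGF-NS (adjusted p = 0.21). Without LH-NS library 1 the IGF-NS change was 0.96 with an adjusted p of 0.033.

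Timp2 encodes the inhibitor that links MMP14 to the proform of MMP2. It had 1577, 1393 and 1409 FPKM in PDGF-NS, 1427, 1150 and 1970 FPKM in IGF-NS, and 2035, 1397 and 1358 FPKM in LH-NS. The 3 sets overlapped, and the widest spread was within IGF-NS and within the control. Timp2 averaged 1459 ± 102 FPKM in PDGF-NS, 1516 ± 417 FPKM in IGF-NS and 1597 ± 380 FPKM in LH-NS (SD, n = 3 each). The log2 change was -0.11 in PDGF-NS (95% interval -0.59 to 0.38, adjusted p = 0.74) and -0.08 in IGF-NS (-0.57 to 0.40, adjusted p = 0.81) against the control, and -0.02 in PDGF-NS against IGF-NS (adjusted p = 0.96). Its sign turned under other settings in each comparison, so no direction is given for it.

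Timp3 encodes the matrix-bound inhibitor that acts on MMPs, on several ADAMs and on ADAMTS aggrecanases. Its levels were 206, 186 and 160 FPKM in PDGF-NS, 239, 302 and 315 FPKM in IGF-NS, and 593, 471 and 448 FPKM in LH-NS. The 3 sets were in full order without overlap, lowest in PDGF-NS and highest in the control. The means were 184 ± 22.8 FPKM in PDGF-NS, 285 ± 40.9 FPKM in IGF-NS and 504 ± 77.6 FPKM in LH-NS (SD, n = 3 each). Timp3 was 2.74-fold lower in PDGF-NS than in the control (log2 change -1.45 ± 0.16 SE, adjusted p = 0.00014) and 1.77-fold lower in IGF-NS (-0.82 ± 0.16 SE, adjusted p = 0.0059), and both calls held in all 17 alternatives. It was also 1.55-fold lower in PDGF-NS than in IGF-NS (-0.63 ± 0.16 SE, adjusted p = 0.026). That call was lost without IGF-NS library 2 (adjusted p = 0.077), IGF-NS library 3 (0.074), PDGF-NS library 2 (0.07) or PDGF-NS library 3 (0.12).

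The make-up of the summed Timp2 and Timp3 transcripts differed between sets. Timp3 made up 11.5, 11.8 and 10.2% of summed Timp2 and Timp3 FPKM in PDGF-NS, 14.3, 20.8 and 13.8% in IGF-NS, and 22.6, 25.2 and 24.8% in LH-NS. The sets did not overlap, with means of 11.2 ± 0.847%, 16.3 ± 3.9% and 24.2 ± 1.44% in PDGF-NS, IGF-NS and LH-NS (SD, n = 3 each). Summed inhibitor FPKM averaged 1644 ± 120 in PDGF-NS, 1801 ± 433 in IGF-NS and 2101 ± 457 in LH-NS. Here IGF-NS overlapped both other sets, while every PDGF-NS library (at most 1783) was below every control (at least 1806). Timp1 is listed at 0 and adds nothing to these sums, but that 0 cannot be read as absence, a point taken up with its own values. The sums, shares and ratios may therefore lack an inhibitor of unknown level, and they leave out Timp4.

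Relative to these inhibitors, Mmp14 stood at 16.4, 21 and 19.7% of summed Timp2 and Timp3 FPKM in PDGF-NS, at 23.7, 20 and 16.6% in IGF-NS, and at 9.63, 10.1 and 9.84% in LH-NS. Every treated library was above every control, and the 3 controls were nearly equal. The means were 19.1 ± 2.35%, 20.1 ± 3.53% and 9.87 ± 0.258% in PDGF-NS, IGF-NS and LH-NS (SD, n = 3 each). Mmp2 reached 0.745, 0.961 and 1.23% of the inhibitor sum in PDGF-NS, 1.44, 1.01 and 0.787% in IGF-NS, and 0.163, 0.179 and 0.14% in LH-NS. These ratios are descriptions of transcript levels within a library, with no test, and they show unequal change rather than which of the genes moved. The plot of Timp2, Timp3 and Mmp14 gives the Mmp14 ratios library by library.

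**Figure D3:**
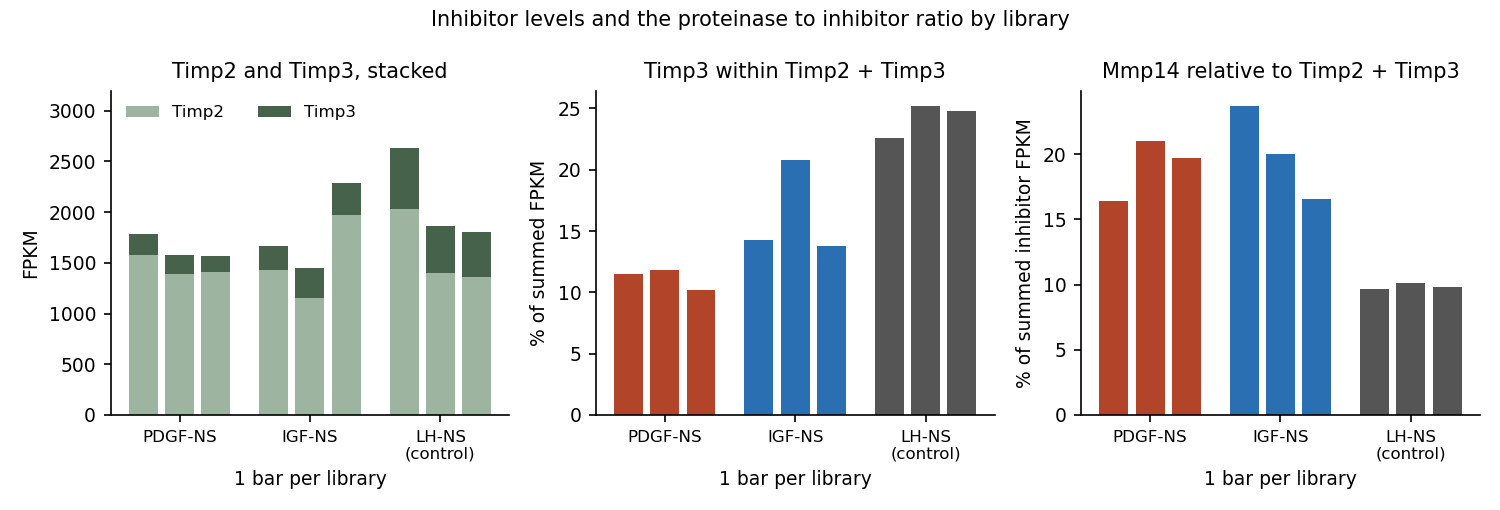
Left, stacked FPKM of Timp2 and Timp3; middle, Timp3 as a percentage of their sum; right, Mmp14 FPKM as a percentage of that sum; 1 bar per library in PDGF-NS, IGF-NS and LH-NS (control), axes from 0. Timp3 is 10.2 to 11.8% of the sum in PDGF-NS and 22.6 to 25.2% in the control, and Mmp14 is at 16.4% or more in each treated library and at 10.1% or less in each control.

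Adamts1 encodes a secreted proteinase that cuts versican and aggrecan. It had 57.1, 33.7 and 43.4 FPKM in PDGF-NS, 67.5, 48.6 and 58.6 FPKM in IGF-NS, and 74.3, 51.4 and 69.4 FPKM in LH-NS. Library 1 of PDGF-NS lay within the control range and the sets overlapped. The change in PDGF-NS against the control did not pass (log2 change -0.54 ± 0.21 SE, adjusted p = 0.077), but it was called lower under median ratio scaling (-0.67, adjusted p = 0.041), a common sum (-0.68, 0.035) and quantile normalization (-0.66, 0.042), and without LH-NS library 2 (adjusted p = 0.046) or PDGF-NS library 1 (0.032). IGF-NS against the control (-0.15, adjusted p = 0.64) and PDGF-NS against IGF-NS (-0.39, adjusted p = 0.26) did not pass either.

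Adamts2 encodes the enzyme that removes the amino-terminal propeptide of fibrillar procollagens. Its values were 8.89, 11 and 11.3 FPKM in PDGF-NS, 17.1, 13 and 26.7 FPKM in IGF-NS, and 25.9, 18.4 and 17 FPKM in LH-NS. All PDGF-NS libraries were below all others, while IGF-NS and the control overlapped. Adamts2 was 1.97-fold lower in PDGF-NS than in the control, at 10.4 ± 1.31 FPKM against 20.5 ± 4.8 FPKM (SD, n = 3 each; log2 change -0.90 ± 0.24 SE, adjusted p = 0.019). This call was lost without LH-NS library 1 (adjusted p = 0.059) or PDGF-NS library 1 (0.069). In IGF-NS, at 18.9 ± 7.03 FPKM, the change against the control did not pass (-0.14, adjusted p = 0.71). PDGF-NS against IGF-NS fell short of the threshold (-0.75 ± 0.24 SE, adjusted p = 0.064), with adjusted p = 0.023 under a common sum, 0.049 under quantile normalization, 0.045 without LH-NS library 1 and 0.026 without IGF-NS library 2.

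Adamts5 encodes an aggrecanase, and of the tested members it spanned the widest range between sets. It had 2.82, 1.61 and 0.961 FPKM in PDGF-NS, 15.3, 12.4 and 10.8 FPKM in IGF-NS, and 9.52, 4.01 and 5.78 FPKM in LH-NS. The sets did not overlap: PDGF-NS was below and IGF-NS above every control. The means were 1.8 ± 0.941 FPKM in PDGF-NS, 12.8 ± 2.32 FPKM in IGF-NS and 6.44 ± 2.82 FPKM in LH-NS (SD, n = 3 each). Adamts5 was 3.58-fold lower in PDGF-NS than in the control (log2 change -1.40 ± 0.30 SE, adjusted p = 0.0061) and 7.14-fold lower than in IGF-NS (-2.35 ± 0.30 SE, adjusted p = 0.00061), and both calls held in all 17 alternatives. The rise in IGF-NS against the control was 1.99-fold and near the threshold (0.95 ± 0.30 SE, adjusted p = 0.044). It was not called in 11 of the 17 alternatives, among them median ratio scaling (0.80, adjusted p = 0.095), quantile normalization (0.80, 0.094), a common sum (0.94, 0.051) and a pseudocount of 0.1 (1.06, 0.074), and without LH-NS library 2 or 3, any 1 of the 3 IGF-NS libraries, or PDGF-NS library 2 (log2 change 0.70 to 1.06, with adjusted p up to 0.14). Adamts1 and Adamts5 stand next to each other in the RefSeq gene order.

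Timp1, the inhibitor of most secreted MMPs, and Mmp3, a stromelysin that can activate other MMPs, were listed at 0 in all 9 libraries. Timp1 lies on the X chromosome, where 478 of 535 matched genes (89.3%) were listed at 0 in every library, against 10.5 to 25.8% on the 20 autosomes. Its neighbours Araf, Uba1, Elk1, Cdk16 and Ndufb11, widely expressed genes, were listed at 0 as well. The listed 0 of Timp1 therefore cannot be read as an absence of its transcript. Mmp3 lies on chromosome 8 in a row of MMP genes, and its neighbours Mmp1, Mmp7, Mmp8, Mmp10, Mmp12, Mmp20 and Mmp27 were also listed at 0 in all libraries, with Mmp13 at most at 0.034 FPKM. Genes on either side of that row had values, from 28.9 to 41.5 FPKM for Dcun1d5 and from 33.9 to 82.5 FPKM for Tmem123. These neighbours were chosen for naming after their values were seen, and whether the 0 of Mmp3 is a true low level was not tested.

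**Figure D4:**
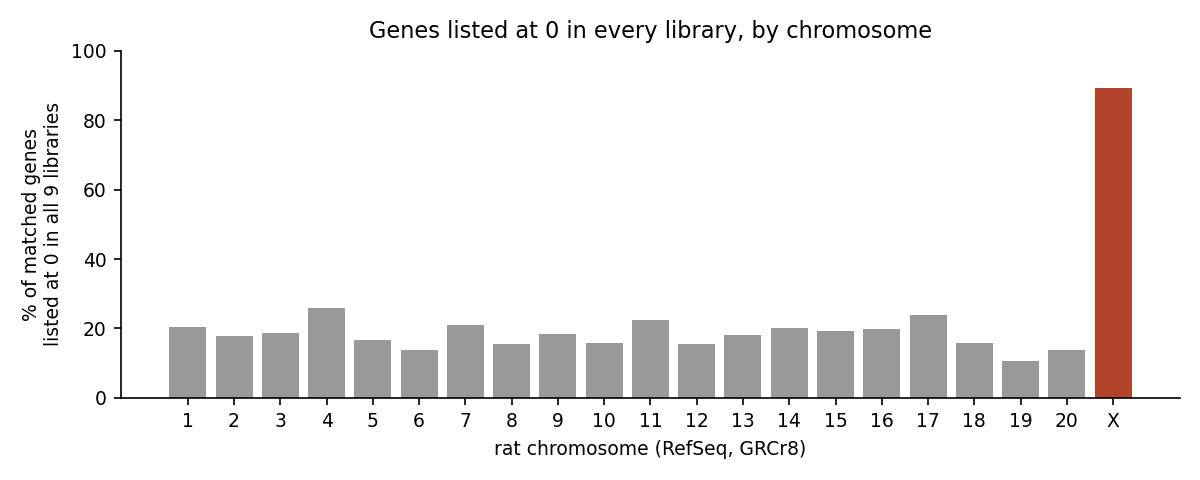
Percentage of genes matched to a rat chromosome that were listed at 0 FPKM in all 9 libraries, 1 bar per chromosome, axis starting at 0. The X chromosome, which holds Timp1, stands at 89.3%, and the 20 autosomes, which hold the other members, lie between 10.5 and 25.8%.

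Within the control set, library 1 gave the highest value of all 8 tested members, a position it held for 41.2% of all tested genes. Within IGF-NS, library 2 gave the lowest value of 6 of the 8 members, against 44.1% of all tested genes. The highest and lowest libraries of a set were therefore often the same for several members, and members are not independent measurements. FPKM as deposited summed to between 616765 and 748000 per library, with 11047 to 11348 genes at 1 FPKM or more, and the files give no read depth. The sums differed by set, at 687686 to 748000 in PDGF-NS and at most 675008 in the libraries of IGF-NS and LH-NS. Pearson correlation over tested genes was 0.959 to 0.983 within sets and 0.901 to 0.947 between sets.

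Of 18 other MMP genes, in 19 table entries, 9 entries were listed at 0 in every library and 5 genes were tested. In PDGF-NS against the control 2 rose, none fell and 3 did not pass (median log2 change 0.34). In IGF-NS 2 rose and 3 did not pass (0.43). Beside these counts and those of the lists below, 20.7% of all tested genes rose and 10.2% fell in PDGF-NS. In IGF-NS these shares were 17.4% and 7.48%. Mmp19, a secreted MMP, had 144, 133 and 137 FPKM in PDGF-NS, 27.5, 29.4 and 28 FPKM in IGF-NS, and 24.1, 27.3 and 22.8 FPKM in LH-NS. The PDGF-NS libraries stood far above all others, and Mmp19 was 5.57-fold higher there than in the control (log2 change 2.44 ± 0.11 SE, adjusted p = 1.5e-06) and 4.88-fold higher than in IGF-NS (2.25 ± 0.11 SE, adjusted p = 3.4e-06). Mmp16, a membrane-type MMP that like MMP14 can activate MMP2, averaged 65.6 ± 10.7 FPKM in PDGF-NS, 95.4 ± 5.79 FPKM in IGF-NS and 29.1 ± 6.3 FPKM in LH-NS (SD, n = 3 each). It rose 2.25-fold in PDGF-NS (adjusted p = 0.00092) and 3.28-fold in IGF-NS (adjusted p = 0.00018). Mmp15, another membrane-type MMP, averaged 0.773 FPKM in PDGF-NS, 2.44 FPKM in IGF-NS and 0.389 FPKM in LH-NS, and passed in IGF-NS against the control (log2 change 1.25, adjusted p = 0.0089).

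Among 16 other ADAMTS proteinase genes, 15 were in the table and 8 were tested. In each comparison against the control 2 rose, 2 fell and 4 did not pass, with a median log2 change of 0.14 in PDGF-NS and 0.24 in IGF-NS. Adamts4, the other classical aggrecanase beside Adamts5, had 4.13, 6.69 and 6.96 FPKM in PDGF-NS, 1.5, 1.02 and 0.878 FPKM in IGF-NS, and 0.22, 0.333 and 0.38 FPKM in LH-NS. It rose in PDGF-NS (log2 change 2.38 ± 0.21 SE, adjusted p = 3.9e-05), where Adamts5 fell, and was higher there than in IGF-NS (1.68 ± 0.21 SE, adjusted p = 0.00059), where Adamts5 was the higher. Its smaller rise in IGF-NS (0.69, adjusted p = 0.039) was lost in 10 of 15 alternatives, with adjusted p up to 0.14 when 1 library was left out (any but IGF-NS library 3 and PDGF-NS library 1).

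Adamts12 and Adamts9 fell in both treated sets. Adamts12, which cuts cartilage oligomeric matrix protein, had 15, 14.1 and 13.5 FPKM in PDGF-NS, 33.8, 39.3 and 35.2 FPKM in IGF-NS, and 108, 113 and 103 FPKM in LH-NS. The sets did not overlap, and the level was 7.58-fold lower in PDGF-NS (log2 change -2.84 ± 0.11 SE, adjusted p = 4.9e-07) and 2.98-fold lower in IGF-NS (-1.55 ± 0.11 SE, adjusted p = 3.1e-05) than in the control. Adamts9, which cuts versican, averaged 2.01 ± 0.372 FPKM in PDGF-NS, 3.79 ± 0.0866 FPKM in IGF-NS and 14.9 ± 2.36 FPKM in LH-NS (SD, n = 3 each). It was 7.41-fold lower in PDGF-NS (adjusted p = 6.8e-06) and 3.94-fold lower in IGF-NS (adjusted p = 8.3e-05) than in the control. Adamts7, which also cuts cartilage oligomeric matrix protein, was higher in IGF-NS (2.41 against 0.83 FPKM, adjusted p = 0.0097). In PDGF-NS, at 1.87 FPKM, it passed as well (adjusted p = 0.03), but not without any 1 of the 3 LH-NS libraries or PDGF-NS library 1 or 3 (adjusted p up to 0.11). That call was also lost under quantile normalization (adjusted p = 0.068). Of 3 tested ADAMTS-like genes, whose proteins lack the proteinase domain, 1 fell in PDGF-NS and 2 in IGF-NS. Adamtsl3 fell in both, at 13.5 FPKM in PDGF-NS (adjusted p = 0.0013) and 13.9 FPKM in IGF-NS (adjusted p = 0.0026) against 26 FPKM in LH-NS. Adamtsl4 fell in IGF-NS, at 11.2 FPKM against 20.5 FPKM in LH-NS (adjusted p = 0.0053).

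**Figure D5:**
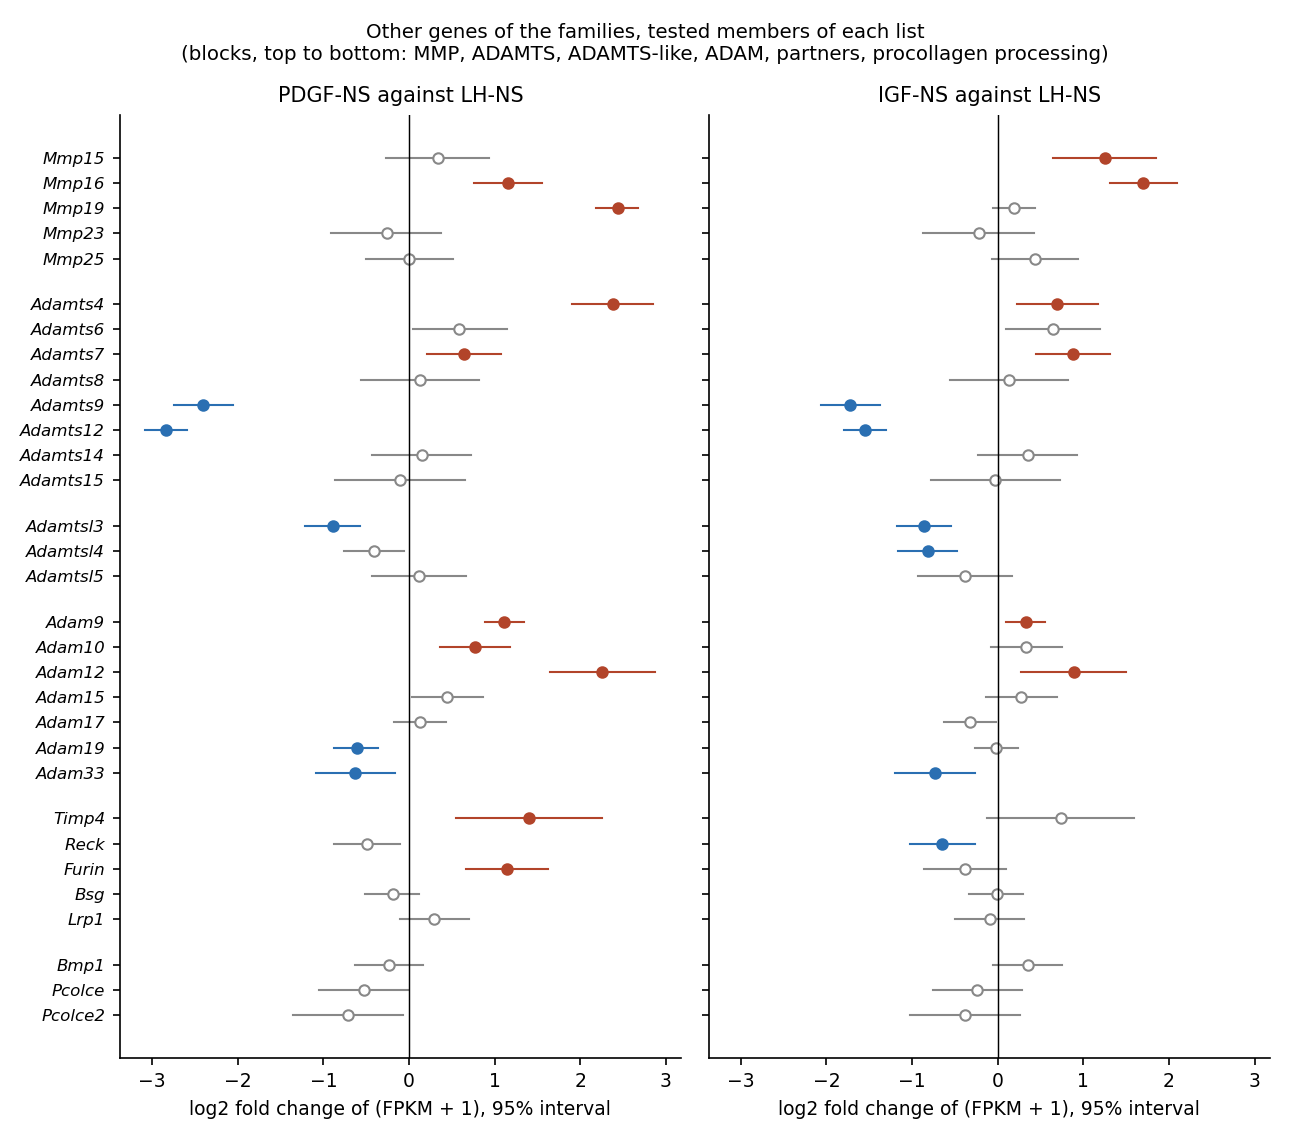
Log2 change on the log2(FPKM + 1) scale of the tested genes of each list in PDGF-NS against LH-NS and in IGF-NS against LH-NS, 1 point per gene with its 95% interval; filled points have an adjusted p under 0.05, red for higher and blue for lower, and open grey points did not pass. Among the 5 tested other MMPs none is called lower, and among the 8 tested other ADAMTS proteinases 2 are called in each direction in both panels. Over all tested genes 10.2% are called lower in PDGF-NS against LH-NS and 7.48% in IGF-NS against LH-NS.

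ADAM genes encode cell surface proteins, several of which are sheddases, and 7 of 11 were tested. In PDGF-NS 3 rose (Adam12, Adam9 and Adam10), 2 fell and 2 did not pass (median log2 change 0.45), and in IGF-NS 2 rose, 1 fell and 4 did not pass (0.27). Adam12 had 11.6, 26.5 and 21.2 FPKM in PDGF-NS, 5.28, 6.38 and 8.49 FPKM in IGF-NS, and 3.76, 3.21 and 2.47 FPKM in LH-NS. The sets were in order without overlap, with a 6.28-fold rise in PDGF-NS (adjusted p = 0.00023). Adam9 averaged 55.2 ± 0.835 FPKM in PDGF-NS and 25 ± 0.699 FPKM in LH-NS (SD, n = 3 each), a 2.21-fold rise (adjusted p = 4.1e-05). The IGF-NS calls for Adam12 (adjusted p = 0.041), Adam9 (0.041) and Adam33 (0.029) were less stable. For Adam9 the log2 change of 0.33 was 0.17 under median ratio scaling (adjusted p = 0.26) and 0.20 under quantile normalization (0.19), and the call was also lost under a common sum (0.051), with only the 2 sets compared (0.1) and with a replicate block (0.079). The Adam12 call was lost with no filter on low values (0.077), under median ratio scaling (0.069) or quantile normalization (0.087) and with a replicate block (0.053), and that of Adam33 with no filter (0.055) and with a replicate block (0.056). With 1 library left out, Adam9 was not called whichever of the 9 it was (adjusted p up to 0.14), Adam12 not without LH-NS library 2 or 3, any IGF-NS library or PDGF-NS library 3 (up to 0.12), and Adam33 not without LH-NS library 1 or IGF-NS library 1 or 2 (up to 0.1). The 2 that fell in PDGF-NS were Adam33, whose call (adjusted p = 0.045) was lost in 9 of 17 alternatives, including those without library 1 or 2 of LH-NS, 1 or 2 of IGF-NS, or 1 or 3 of PDGF-NS (up to 0.16), and Adam19, named after its values were seen, at 17.9 FPKM against 28 FPKM in LH-NS (adjusted p = 0.0029).

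Partners of the MMPs numbered 9 genes, of which 5 were tested; 2 rose in PDGF-NS and 1 fell in IGF-NS. Furin, the proprotein convertase that activates MMP11 and the membrane-type MMPs, had 111, 132 and 143 FPKM in PDGF-NS, 35.5, 38.1 and 61.6 FPKM in IGF-NS, and 69.4, 56.6 and 47.5 FPKM in LH-NS. PDGF-NS stood above both other sets, which overlapped, with a 2.23-fold difference from the control (log2 change 1.15 ± 0.22 SE, adjusted p = 0.003) and a 2.86-fold difference from IGF-NS (1.53 ± 0.22 SE, adjusted p = 0.0011). Timp4, the remaining inhibitor of the family, was low at 0.949, 4.6 and 2.86 FPKM in PDGF-NS, 2.3, 1.04 and 0.567 FPKM in IGF-NS, and 0.161, 0.501 and 0.311 FPKM in LH-NS. It passed in PDGF-NS (log2 change 1.40 ± 0.38 SE, adjusted p = 0.02), but not without LH-NS library 1 (adjusted p = 0.053), PDGF-NS library 2 (0.076) or PDGF-NS library 3 (0.069). Reck, a membrane-anchored inhibitor of MMP14 and MMP2, averaged 33.2 ± 2.18 FPKM in PDGF-NS, 29.8 ± 3.86 FPKM in IGF-NS and 47.8 ± 11.3 FPKM in LH-NS (SD, n = 3 each). It fell in IGF-NS (log2 change -0.65, adjusted p = 0.02), a call lost without IGF-NS library 2 (adjusted p = 0.07) and with only the 2 sets compared (0.051). In PDGF-NS Reck missed the threshold (-0.49, adjusted p = 0.051). Procollagen processing genes had 3 of 5 tested, and none passed in any comparison.

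Substrates of these enzymes moved in both directions, with 9 of 11 genes tested, 1 higher and 3 lower in PDGF-NS, and 2 higher and 3 lower in IGF-NS. Elastin (Eln) had 77.9, 130 and 136 FPKM in PDGF-NS, 1857, 1762 and 1587 FPKM in IGF-NS, and 2161, 1933 and 1748 FPKM in LH-NS, and was 17-fold lower in PDGF-NS than in the control (log2 change -4.11 ± 0.20 SE, adjusted p = 1.9e-06). Versican (Vcan), which Adamts1, Adamts4, Adamts5 and Adamts9 cut, averaged 215 ± 24.5 FPKM in PDGF-NS, 123 ± 21.4 FPKM in IGF-NS and 29.6 ± 5.11 FPKM in LH-NS (SD, n = 3 each), and rose 7.27-fold in PDGF-NS (adjusted p = 5.1e-06) and 4.15-fold in IGF-NS (adjusted p = 6.5e-05). Aggrecan (Acan) averaged 349 ± 129 FPKM in PDGF-NS, 44.2 ± 13.3 FPKM in IGF-NS and 197 ± 26.5 FPKM in LH-NS. It was 4.45-fold lower in IGF-NS than in the control (adjusted p = 0.0009) and 7.91-fold higher in PDGF-NS than in IGF-NS (adjusted p = 0.00015). The Acan change in PDGF-NS against the control did not pass (log2 change 0.76, adjusted p = 0.079), and those libraries overlapped. Basement membrane collagen Col4a1, a substrate of MMP2, was 2.31-fold lower in PDGF-NS (39.8 ± 1.8 FPKM against 92.2 ± 8.75 FPKM in LH-NS, adjusted p = 6e-05). Its smaller fall in IGF-NS (71.8 ± 4.14 FPKM, log2 change -0.35, adjusted p = 0.047) was lost in 9 of 17 alternatives, which were the fit of only the 2 sets, the replicate block, and those without LH-NS library 1 or 2, IGF-NS library 1 or 2, or any PDGF-NS library (adjusted p up to 0.16). Its partner chain Col4a2 was 1.99-fold lower in PDGF-NS (18.5 ± 1.8 FPKM against 36.7 ± 10.4 FPKM in LH-NS, adjusted p = 0.012). Fibronectin (Fn1) was 1.71-fold lower in IGF-NS (3661 ± 182 FPKM against 6244 ± 435 FPKM in LH-NS, adjusted p = 0.0048), and Col3a1, a fibrillar collagen, was 2.5-fold higher in IGF-NS (1760 ± 284 FPKM against 705 ± 94 FPKM in LH-NS, adjusted p = 0.0017).

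Likeness of profile was measured as the mean absolute difference, over the 9 libraries, between log2(FPKM + 1) values centred on each gene's own mean. It was taken for the 3 tested members with the widest range of set means, which were Adamts5 (2.35 on the log2 scale), Mmp2 (2.17) and Timp3 (1.45). Nearest to Mmp2 was Nhej1 (0.09), a DNA repair gene, with means of 14, 19.8 and 3.47 FPKM in PDGF-NS, IGF-NS and LH-NS, followed by Sesn3 and Trim2 (0.18 each). Nearest to Timp3 were Lats2 (0.10), a kinase of the Hippo pathway with means of 16.2, 21.6 and 43.6 FPKM, Slc25a23 (0.11) and Pcsk6 (0.13), a proprotein convertase related to furin. Nearest to Adamts5 were Pid1 (0.23), with means of 12.8, 67 and 31.3 FPKM, Hmcn1 (0.27) and Mfrp (0.28).

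Markers of cell types moved with the sets, and their part in the members' results was not tested. In RNA from whole cultures, fewer cells of a type and less RNA per cell cannot be told apart. Summed FPKM of 6 smooth muscle markers was 276 to 345 in PDGF-NS, 497 to 524 in IGF-NS and 2309 to 3297 in LH-NS, and of the 5 tested, 5 fell in PDGF-NS and 4 in IGF-NS. Tagln made up most of that sum, with means of 211, 358 and 2105 FPKM in PDGF-NS, IGF-NS and LH-NS. Of 5 fibroblast markers, summing to 837 to 1321 FPKM in PDGF-NS, 1895 to 2013 FPKM in IGF-NS and 297 to 423 FPKM in LH-NS, all 4 tested (Pdgfra, Dcn, Lum and Dpt) rose in both, and Tcf21 was listed at 0. Most of the fibroblast sum was Lum, with means of 1064, 1795 and 340 FPKM in PDGF-NS, IGF-NS and LH-NS. Between the treated sets, Dcn and Lum were lower in PDGF-NS, Dpt was higher (14 against 2.26 FPKM) and Pdgfra did not pass. Endothelial markers summed to at most 0.76 FPKM in any library, with Cdh5 and Kdr at 0. Macrophage markers summed to 1.76 to 9.41 FPKM in PDGF-NS, 0.124 to 1.32 FPKM in IGF-NS and 0.133 to 0.481 FPKM in LH-NS, with Ptprc at 0 and Cd68 at 9.37 FPKM in PDGF-NS library 1. Cardiomyocyte markers summed to 1.82 to 5.26 FPKM in PDGF-NS, 8.66 to 19.8 FPKM in IGF-NS and 10.5 to 23.1 FPKM in LH-NS, with Myh6 at 0. Tnnt2, the only one tested, made up most of that sum, with means of 2.68, 12 and 15 FPKM in PDGF-NS, IGF-NS and LH-NS.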

How the data were processed

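RNA was measured in 9 libraries of starved S31 cells, 3 in each of 3 sets. Trizol was used for the RNA and the Lexogen SENSE mRNA kit v2 for the libraries, per the labels' protocols. GSNAP and Cufflinks are named per the submitters' processing notes; the sources used here give no versions, build, annotation or strand setting. The authors deposited FPKM per gene and library in 1 table of 26407 entries, with no counts, so no count model was used, and reads split between related genes cannot be traced. The value 999999999 in 10 cells of 4 genes was read as a failed estimate and those genes were left out, as were 2 duplicate all-zero entries. A median above 5 FPKM together with a 0 in some library occurred in 31 genes, so zeros in this table may also be failed estimates.

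Libraries were assigned by the column name in each sample record. Genes averaging 1 FPKM or more were tested as log2(FPKM + 1) with limma 3.58.1 in R 4.3.3 (limma-trend, all 9 libraries in 1 fit, set as the only term). The 3 contrasts were two-sided, with Benjamini-Hochberg adjustment over all 11376 tested genes of a contrast and calls under 0.05. Scripts were tested on simulated data. Named are the 10 members, for each list and each comparison against the control up to 4 called genes with the largest change there, and the 3 genes most like each of 3 members. The members and lists were chosen with earlier results of these data known. The 17 alternatives were a pseudocount of 0.1, no filter, a mean of at least 5 FPKM, median ratio scaling, a common sum, quantile normalization, only the 2 sets compared, replicate number as a block, and leaving out each of the 9 libraries. Motifs and base composition were computed over the 250 bases before each RefSeq gene start (GRCr8), and the X chromosome share from RefSeq gene names.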

Additional observations from a re-analysis of the deposited data

How the results depend on the processing

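Over the 24 comparisons of the 8 tested members, 358 of 408 values under alternatives kept direction and side of the threshold, 23 lost a call, 11 gained one and 16 changed sign, none of the last in a called comparison. Mmp11 in PDGF-NS against LH-NS turned to -0.12 under median ratio scaling and quantile normalization and -0.13 under a common sum, and lay between -0.20 and 0.33 with 1 library left out. Timp2 turned to 0.04 in IGF-NS against LH-NS under quantile normalization and to 0.01 in PDGF-NS against IGF-NS under median ratio scaling. With 1 library left out, Timp2 ranged from -0.21 to 0.08 in PDGF-NS against LH-NS, from -0.29 to 0.10 in IGF-NS against LH-NS and from -0.20 to 0.19 in PDGF-NS against IGF-NS, and Adamts2 in IGF-NS against LH-NS from -0.41 to 0.08. Members called higher in PDGF-NS against LH-NS numbered 1 under a common sum and 1 to 2 with 1 library left out. In IGF-NS against LH-NS they numbered 2 to 4 with 1 library left out; members called lower in PDGF-NS numbered 2 to 4 against LH-NS and 1 to 3 against IGF-NS. Over all genes, those called higher with 1 library left out numbered 1520 to 2491 in PDGF-NS against LH-NS, 1172 to 1967 in IGF-NS against LH-NS and 541 to 1101 in PDGF-NS against IGF-NS; those called lower in the last numbered 468 to 1051, and 1481 under a common sum. The median change of all genes was 0.13 in PDGF-NS and 0.15 in IGF-NS against LH-NS as deposited and 0.01 under median ratio scaling. Calls in PDGF-NS against LH-NS were 2355 higher and 1166 lower as deposited, 1765 and 1680 under median ratio scaling, 1696 and 1680 under a common sum and 1694 and 1744 under quantile normalization. In IGF-NS against LH-NS they were 1976 higher and 851 lower as deposited, 1136 and 1232 under median ratio scaling and 1220 and 1173 under quantile normalization, and in PDGF-NS against IGF-NS 948 and 859 as deposited and 736 and 1481 under a common sum. Same-numbered libraries of different sets had correlations of deviations from the set means of -0.28 to 0.25. For unlike-numbered libraries these were -0.51 to 0.41. Such values cannot settle whether a number marks a shared culture or day, which the labels do not state. With the number as a replicate block, 1 member (Adamts5) was called lower in PDGF-NS against IGF-NS, Timp3 reaching a limma adjusted p of 0.055. Adamts1 was then called lower in PDGF-NS against LH-NS (adjusted p = 0.013). The cause of these changes was not tested. Depth is not known, so no counting error can be given for low levels such as those of Adamts5.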
